A study of Mus musculus with 94 samples.

Results

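The subject is a set of 150 probes that read higher in macrophage segments than in tubule segments of injured mouse kidneys and that also rose in the tubules of vehicle-treated mice by day 14. They were taken from 20175 probes on the GeoMx Mouse Whole Transcriptome Atlas, a panel in which each probe carries a barcode that UV light releases from a chosen area of a tissue section. For each probe the level was log2(CPM + 1), where CPM scales the counts of a section and compartment to a common total. M was the mean difference in level, IBA1 minus PanCK, over the 4 vehicle sections of days 7 and 14. d14 was the mean PanCK level of the vehicle day 14 sections minus that of the controls. Probes with M of at least 1 and d14 of at least 0.5 numbered 394, or 393 after 3 identifiers were set aside, and the 150 with the highest M were kept. The M, d14, and all values from those sections therefore chose the probes, and they are given as descriptions without a test.

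The kidneys came from male C57BL/6 mice with unilateral ischemia-reperfusion injury (IRI), pretreated with entospletinib, an inhibitor of the kinase SYK, or with vehicle. Per the study's methods, entospletinib injections went on after surgery until the kidneys of days 7 and 14 were taken, and mice taken on day 1 had only the pretreatment. Groups were coded I1V, I7V, and I14V for vehicle and I1E, I7E, and I14E for entospletinib on days 1, 7, and 14, and CTRL for uninjured contralateral kidneys, whose donor mice and treatment the labels do not give. Each group had 2 sections, which the study's design assigns to 2 mice, and the sections are called 1 and 2 after the prefix of the labels. In all, 94 segments were counted, 46 macrophage segments selected by IBA1 and 48 tubule segments labelled PanCK.

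IBA1 is a cytoplasmic protein of macrophages, cytokeratins recognized by the PanCK antibody mark epithelium, and CD10 lies on the brush border of proximal tubules. Kidney macrophages occupy the interstitium between tubules, where they engulf debris, present antigen, and exchange signals with the epithelium. After ischemia, monocytes enter from the blood, and macrophages can either clear damage and support repair or persist with inflammation and scarring. SYK relays signals from Fc and C-type lectin receptors in these cells. The files name probes by identifier only, so the genes behind the 150 probes are not given here, and the segments could not be checked against marker genes. Fewer cells of a type and less RNA per cell cannot be told apart in such sums.

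Counts summed per section were 9404235 to 25729550 in tubules and only 117693 to 2773456 in macrophage segments. In the shallowest macrophage sums, section 2 of I7E and section 1 of CTRL, 93 and 119 of the 150 probes had fewer than 10 counts. In tubules none of the 150 did in any section. Counts were not compared with the panel's negative probes, which target no mRNA, so they do not show how far a level lay above background. All 150 passed the filter on low counts in every test.

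The members spanned an M of 3.16 to 1.58, with a median of 1.92, and a d14 of 0.54 to 4.80, with a median of 1.48. The last probe kept and the first left out by rank both had an M of 1.58. The lowest d14 among the members was 0.54, and the highest among the 4 probes with an M in the same range that failed the d14 threshold was 0.49.

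In uninjured tubules the 150 probes were scarce. They took 0.336% and 0.387% of all counts in CTRL sections 1 and 2. On vehicle day 1 they took 0.457% and 0.498%, and on day 7 0.942% and 0.772%. By vehicle day 14 they took 1.92% and 2.68%, so the mean of 2.30% ± 0.533 (SD, n = 2) was 6.35 times the CTRL mean of 0.362% ± 0.0363. In these section sums, both sections of each vehicle time point lay above both of the time point before. This order did not hold in the medulla alone, where the members took 0.774% and 1.63% in I1V and 1.20% and 0.664% in I7V. Per probe, the median member stood at 13.1 and 18.1 CPM in CTRL and at 38.7 and 54.3 CPM in I14V. In CTRL tubules 117 of the 150 probes were below the median level of the whole panel, and in I14V tubules 13 were.

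Members differed in when their vehicle tubule level first exceeded CTRL by 0.5 or more on the log2 scale. The level did so on days 1 and 7 for 53 of the 150, on day 7 but not day 1 for 48, on day 14 alone for 43, and on day 1 but not day 7 for 6. Of the 3090 probes on the panel that met the same d14 threshold, 15.4%, 32.2%, 50.2%, and 2.23% fell into these classes in the same order, where the members' shares were 35.3%, 32%, 28.7%, and 4%. Every one of the 150 was higher on day 14 than on day 7, by a median of 0.92. Among those 3090 probes, 93.5% were also higher on day 14 than on day 7. The late-only members had the smaller d14, with a median of 1.03 against 1.84 for those already up on days 1 and 7, and the 3090 probes had the same order, 0.66 against 1.39.

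A few probes carried much of the tubular sum. The 10 with the most counts held 61.1% of the members' counts in each I14V tubule sum. RTS0070870, picked for its count after the values were seen, alone held 15.0% and 11.8% there. Its tubule level was 189 and 178 CPM in CTRL, 1211 and 972 in I7V, and 2880 and 3147 in I14V. In I14E tubules it was 149 and 227 CPM, on either side of the CTRL values.

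The rise was seen in both kidney regions. In CTRL tubules the members took 0.305% and 0.388% of counts in the cortex and 0.366% and 0.387% in the medulla. In I14V they took 1.099% and 2.62% in the cortex and 2.77% and 2.71% in the medulla. Cortex of section 1 was the lowest of these 4 sums, and it was still above every CTRL sum. Day 14 sections had 2 medullary and 2 cortical regions each, and the other sections had 1 and 2.

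Entospletinib tubules did not show this build-up in their values. The members took 0.386% and 0.378% of counts in I1E, 0.435% and 0.379% in I7E, and 0.374% and 0.368% in I14E. The I14E mean of 0.371% ± 0.00429 was 1.02 times that of CTRL, and the I14V mean was 6.20 times that of I14E. In 149 of the 150 probes the I14E level was at least 0.5 lower than the I14V level on the log2 scale, with a median difference of -1.48. The same held for 16.1% of all probes and for 94.2% of the 243 probes that met both thresholds with a lower M. These comparisons use the sections that chose the probes and carry no test.

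The amount of macrophage signal differed between the same groups. The total count of the IBA1 segment divided by that of the PanCK segment of the same region had a median of 0.0172 in CTRL, with a range of 0.00546 to 0.0241. In I14V the median was 0.144, with a range of 0.0875 to 0.976, and in I14E it was 0.0247, with a range of 0.00686 to 0.0366. No I14V region overlapped CTRL or I14E in this ratio. Over all 46 regions, pooled across groups, those with a higher ratio had a higher members' share in tubules (Pearson r = 0.73 on the log2 scale, Spearman rho = 0.73). Over the 38 regions outside I14V the values were 0.72 and 0.59. Among the 8 I14V regions alone the order was reversed (r = -0.65, rho = -0.88). In those 8, the members' share in macrophage segments rose with their share in tubules (r = 0.85, rho = 0.81). The 8 regions come from only 2 sections, and the tubule total enters both the ratio and the tubule share. The part of the ratio in the tubular level of the members was not tested.

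The tests that the choice of probes left free used I1V, I1E, I7E, and I14E in both compartments, and CTRL in macrophage segments. They asked whether the probes kept their compartment outside the sections that defined it, and whether they moved in entospletinib tubules between time points. Calls required an adjusted p under 0.05 together with a log2 fold change beyond 1 in either direction. The p came from quasi-likelihood fits in edgeR and was adjusted by the Benjamini-Hochberg method across every probe in the fit.

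The probes also read higher in macrophage segments in the sections that M did not use. In the 8 sections of I1V, I1E, I7E, and I14E, 135 of the 150 probes were called higher in macrophage than in tubule segments and 0 lower, beside 1.66% of all probes called higher. The median log2 fold change was 1.58, with a range of 0.24 to 3.91, against -0.10 over all probes. In every one of the 8 sections, 123 of the 150 (82%) read above 0 on the IBA1 minus PanCK scale, compared with 4.85% of the panel. The median difference per section was lowest in I7E section 1, at 0.62, and highest in I14E section 2, at 2.63. In CTRL it was 1.16 and 1.61, in I14V 1.71 and 1.63.

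RTS0063074 and RTS0063077 had the largest M, both 3.16. For RTS0063074 the tubule level was 24.2 and 27.5 CPM in CTRL, 35.0 and 38.2 in I1V, 105 and 81.7 in I7V, and 346 and 528 in I14V. With entospletinib it was 28.9 and 34.8 in I1E, 29.6 and 30.9 in I7E, and 26.1 and 28.3 in I14E. Vehicle sections of days 7 and 14 stood apart from all others, and the entospletinib sections lay between the lowest CTRL value and the lowest I1V value.

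In macrophage segments RTS0063074 read 245 and 557 CPM in CTRL, 724 and 510 in I1V, 413 and 729 in I1E, and 1495 and 1422 in I7V. It read 101 and 586 in I7E, 1755 and 2720 in I14V, and 558 and 903 in I14E. Macrophage values exceeded the tubule values of the same section throughout, and the 2 sections of I7E differed widely. Over the 8 sections not used by M, the macrophage-minus-tubule log2 fold change was 3.91 ± 0.31 (SE), with an adjusted p of 4.5e-05 by edgeR.

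RTS0063077 followed the same order at lower levels. Its tubule level was 21.6 and 17.6 CPM in CTRL, 25.4 and 23.9 in I1V, 77.0 and 60.7 in I7V, and 251 and 356 in I14V, against 19.5 and 22.8 in I14E. The macrophage level was 150.5 and 366 CPM in CTRL, 1264 and 1761 in I14V, and 359 and 644 in I14E. The compartment difference was 3.83 ± 0.30 on the log2 scale, with an edgeR adjusted p of 4.83e-05.

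Within entospletinib tubules no member was called between days. For I14E against I1E, 0 of 150 were called, beside 0.283% of all probes, and 14 had an unadjusted p under 0.05, as did 8.72% of all probes, a share near that of the members. The members' median log2 fold change was -0.01, ranging from -0.77 to 1.59, against 0.03 over all probes. DESeq2 on the same sums also called 0, and DESeq2 with regions as replicates called 4, all higher. For I7E against I1E, edgeR and DESeq2 on the sums called 0, beside 0.243% of all probes by edgeR. There 15 members and 8.32% of all probes had an unadjusted p under 0.05, again near each other, and the median was 0.10 against 0.09 over all probes. These results do not show that the levels were equal. Most members were low in these tubules, with 116 of the 150 below the median level of the panel in I1E, 114 in I7E, and 117 in I14E. Their distance from background was not assessed.

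Neither the positive nor the negative changes in I14E against I1E tubules passed the test. RTS0076941 read 19.4 and 15.7 CPM in I1E and 23.0 and 25.3 in I14E, a log2 fold change of 0.57 ± 0.16 with an edgeR adjusted p of 0.199. RTS0069244 read 22.8 and 20.4 in I1E and 38.7 and 34.4 in I14E, a change of 0.85 ± 0.25 with an adjusted p of 0.203. Both were chosen as the smallest p among probes with a positive sign. In each the 2 I14E sections lay above the 2 I1E sections, and neither passed the test.

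Among probes with a negative sign, RTS0063681 and RTS0078246 had the smallest p. RTS0063681 read 26.0 and 28.9 CPM in I1E and 17.4 and 14.3 in I14E, a log2 fold change of -0.71 ± 0.14 with an edgeR adjusted p of 0.0548. RTS0078246 read 28.6 and 31.6 in I1E and 20.4 and 18.2 in I14E, a change of -0.56 ± 0.18 with an adjusted p of 0.259. The CTRL tubule values were 17.5 and 17.7 CPM for RTS0063681 and 14.2 and 21.5 CPM for RTS0078246. The I14E values of RTS0078246 lay within the CTRL range, and those of RTS0063681 below it, only just so in section 1.

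On day 1 most members read lower with entospletinib than with vehicle in tubules, but none was called. The median log2 fold change of I1E against I1V was -0.24, against -0.01 over all probes, and 13 of the 150 were positive. Both I1E sections lay below both I1V sections for 85 of the 150 (56.7%), compared with 10.7% of the panel. An unadjusted p under 0.05 was reached by 32 members and by 100 of all 20175 probes. edgeR called 0 members and 0% of all probes, and DESeq2 called 1 member, lower. The medulla gave 1863750 and 1235205 of the tubule counts in I1V and 10109432 and 11699181 in I1E. The cortex gave 8104918 and 9488876 in I1V and 6614737 and 13455270 in I1E. The groups were thus compared on unlike mixes of regions.

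The day 1 vehicle signal lay in the medulla. The members took 0.774% and 1.63% of counts in I1V medullary tubules and 0.384% and 0.351% in I1V cortical tubules. In I1E they took 0.406% and 0.345% in the medulla and 0.356% and 0.408% in the cortex. Medullary and cortical shares were thus apart in both I1V sections and overlapped in I1E. The I1V medullary tubule sums were the smallest of all regional tubule sums, at 1863750 and 1235205 counts, beside macrophage sums of 314406 and 185451. In the I1V cortex the tubule sums were 8104918 and 9488876 and the macrophage sums 404836 and 267317. In the I1E medulla they were 10109432 and 11699181, and 215899 and 184353. Macrophage relative to tubule signal was thus higher in the I1V medulla than in these others. Its part in the regional difference was not tested.

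Because the regional difference in the members' share was noticed before it was fitted, its test was added afterwards. Between medulla and cortex of I1V tubules, 101 of the 150 were called higher in the medulla and 0 lower, beside 2.4% of all probes called higher, with a median log2 fold change of 1.41 against 0.09 over all probes. Without section 2 the count was 60. The medulla-minus-cortex difference itself differed between I1E and I1V for 74 members at an adjusted p under 0.05, all smaller in I1E, beside 2.84% of all probes. Without section 2 of I1V this count was 23, without section 2 of I1E it was 41, and leaving out section 1 of I1E gave 51. With all 4 unused groups in a single region effect, 1 member (0.667%) was called, higher in the medulla. Counted either way, this share was near the 0.625% of all probes. By direction, 22 of all 20175 probes were called higher and 104 lower.

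RTS0063681 and RTS0078246 illustrate the regional pattern. RTS0063681 read 93.9 and 114 CPM in I1V medullary tubules, 21.0 and 23.7 in I1V cortical tubules, and 31.3 and 37.1 in I1E medullary tubules. The I1V medulla-minus-cortex log2 fold change was 2.11 ± 0.18 with an edgeR adjusted p of 8.9e-08. RTS0078246 read 103 and 270 CPM in the I1V medulla against 26.2 and 20.9 in the I1V cortex, a difference of 2.75 ± 0.39 with an adjusted p of 0.00732. In I1E medullary tubules RTS0078246 read 27.9 and 33.4 CPM. The regional difference was smaller in I1E than in I1V for RTS0063681, at -1.28 ± 0.25 with an edgeR adjusted p of 0.00491, and did not pass the test for RTS0078246, at -2.67 ± 0.52 with an adjusted p of 0.0664.

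The member called over all 4 groups was RTS0069244, a single call at about the share of the whole panel called either way. It read 50.2 and 49.9 CPM in I14E medullary tubules and 20.7 and 17.8 in I14E cortical tubules, and 46.1 and 25.01 against 20.6 and 18.2 in I7E. All 4 of these I14E and I7E medullary values were above the cortical ones. The log2 fold change over the 8 sections was 1.06 ± 0.17, with an edgeR adjusted p of 0.00995. In I1V alone it was 1.44 ± 0.25. The change of this difference from I1V to I1E was -0.91 ± 0.33, which did not pass the test (edgeR adjusted p of 0.215). Without section 2 of I1V or section 2 of I14E, 0 members were called, and without section 2 of I1E or of I7E 2 were.

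In vehicle macrophage segments the members' share overlapped CTRL on day 1 and was above it on days 7 and 14. The members took 0.981% and 1.94% of counts in CTRL macrophage segments, 2.75% and 1.498% in I1V, 5.10% and 5.33% in I7V, and 6.75% and 8.57% in I14V. In I1V against CTRL, 11 of the 150 were called higher and 0 lower, beside 0.48% of all probes called higher, and the median log2 fold change was 0.69 against -0.05 over all probes. The 11 ranged from 1.30 to 2.41. The count rests on single sums: without section 1 of CTRL it was 0, without section 2 of CTRL 4, without section 1 of I1V 3, and without section 2 of I1V 8.

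RTS0078246 was 1 of these 11. Its macrophage level was 31.4 and 80.5 CPM in CTRL and 263 and 144 in I1V, and the groups did not overlap. The log2 fold change was 1.82 ± 0.36, with an edgeR adjusted p of 0.00700. In I14V macrophage segments RTS0078246 read 151.1 and 162 CPM, so the I14V sections lay within the range of I1V.

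With entospletinib the members' share in macrophage segments was 1.30% and 1.67% in I1E, 0.918% and 2.29% in I7E, and 2.40% and 3.89% in I14E. Between I14E and I1E, 11 of the 150 were called higher and 0 lower, beside 0.28% of all probes called higher. The median log2 fold change was 0.67 against -0.00106 over all probes, and the 11 ranged from 1.33 to 1.99. Both I14E sections lay above both I1E sections for 87 of the 150, or 58%, compared with 20.4% of the panel. The share was near that of the members, 54.4%, in the 57 probes that met the M threshold but not the d14 threshold. It was 55.1% in the 243 that met both thresholds with a lower M, so this order was not particular to the members. The count of members called was 0 without section 2 of I14E, 1 without section 1 of I1E, 0 without section 2 of I1E, and 1 in cortical regions alone. It was 15 without section 1 of I14E and 42 by DESeq2 with regions as replicates, a setting that treats regions of 1 section as independent.

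The gap between compartments in entospletinib kidneys was tested directly. From I1E to I14E the macrophage-minus-tubule difference changed for 3 members at an adjusted p under 0.05, all wider in I14E, beside 0.0545% of all probes. The median change was 0.70 on the log2 scale, against -0.05 over all probes, and 135 of the 150 were positive. DESeq2 called 0, and the count was 0 without section 2 of I14E or either section of I1E and 6 without section 1 of I14E.

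The 3 probes were RTS0079494, RTS0068373, and RTS0078288, named after their values were seen. RTS0079494 read 81.0 and 86.5 CPM in I1E macrophage segments and 199 and 281 in I14E, while its tubule level was 31.8 and 33.8 in I1E and 30.4 and 29.1 in I14E. The gap widened by 1.48 ± 0.29 on the log2 scale, with an edgeR adjusted p of 0.0368. In I14V the tubule level of RTS0079494 was 103 and 155 CPM and its macrophage level 465 and 595.

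RTS0068373 read 69.1 and 49.4 CPM in I1E macrophage segments and 143 and 218 in I14E, and its tubule level was 29.5 and 23.3 against 27.1 and 26.6. RTS0078288 read 19.7 and 14.8 CPM against 59.5 and 84.5 in macrophage segments, and 18.2 and 13.6 against 16.4 and 13.0 in tubules. In both probes the I14E macrophage sections lay above the I1E sections and the tubule sections overlapped. The 2 gaps widened by 1.40 ± 0.28 and 2.02 ± 0.42 on the log2 scale.

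As the members' share of counts, the macrophage value divided by the tubule value of the same section was 2.92 and 4.99 in CTRL, 3.51 and 3.20 in I14V, and 6.43 and 10.6 in I14E. The ratio was highest in I14E section 2 and lowest in I7E section 1, where it was 2.11. From CTRL to I14V the median member rose by 1.94 in macrophage segments and by 1.48 in tubules on the log2 scale, and the macrophage rise was the larger for 103 of the 150. These values draw on the sections that chose the probes.

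Outside the members, 57 probes met the M threshold but not the d14 threshold. In tubules they took 0.176% ± 0.0201 of counts in CTRL, 0.175% ± 0.00201 in I14V, and 0.139% ± 0.0224 in I14E, and in macrophage segments 1.101% ± 1.18 in CTRL and 0.422% ± 0.0473 in I14V. The 243 that met both thresholds with a lower M took 0.671% ± 0.0882 in CTRL tubules, 2.18% ± 0.239 in I14V tubules, and 0.688% ± 0.0134 in I14E tubules. The thresholds themselves separate these sets, so their tubular values are a description (SD, n = 2 throughout).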

How the data were processed

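Per the file headers, the authors' deposited values are UMI counts, in whole numbers, for each probe in 94 segments, made with the GeoMx NGS Pipeline (version 3.1.1.5), before background evaluation, filtering, or normalization. The study's notes name genome build mm10 and R 4.3.1. For each section, the counts of its regions were added within a compartment, and CPM used all 20175 probes. The members and lists were chosen with earlier results of these data known.

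Sums were filtered with filterByExpr (minimum count 10, minimum total 15), normalized by the upper quartile, and tested in edgeR (version 4.0.16, robust quasi-likelihood, R 4.3.3). All 14 sums of a compartment shared an estimate of the spread, and comparisons of compartments or regions had the section in the model. The SE is the absolute log2 fold change over the square root of F. P-values cover the spread between sections. The fits were tested on simulated data. Alternatives were TMM, DESeq2 (version 1.42.0), no filter, the label prefix as a block, single regions, regions as replicates, and each section left out. The fit of region effects per group was added after the data were seen. Probes named were the 2 with the largest M and the 2 with the smallest p of each sign in I14E against I1E tubules, and others are said to be chosen later. No segment was left out. No gene list or marker could be used without gene names.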

Additional observations from a re-analysis of the deposited data

Results flagged for a closer look

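In 14 groups of segments, each group being a condition and a compartment, the members' share of counts was searched for a single segment far from the rest. Chance flags about 1 in 20 such groups when their segments are independent and alike, and 2 were found. Segments of a group came from 2 sections and from both cortex and medulla, so that rate need not apply. The lowest of the 6 I1E macrophage segments held 0.887%, against 1.54% for the next. The highest of the 6 I1V tubule segments, from the medulla of section 2, held 1.63%, against 0.774% for the next, which was the medulla of section 1.

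Effects differed between groups in 2 tests. From I1E to I14E the macrophage-minus-tubule difference changed for 3 members, and on day 1 the medulla-minus-cortex difference in tubules was not the same in I1E and I1V for 74 members. The second test was added after the regional shares had been seen, and the I1V medulla held 1 region per section.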

How the results depend on the processing

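Under 65 of 93 alternatives the count of members called stayed within 1.5 times its value. The count between compartments did so under all 12, at 122 to 138. Where the count was 0, only another 0 lay within that range. This held under 7 of 8 for I1E against I1V tubules. It held under 10 of 11 each for I14E and I7E against I1E tubules. For the change of the compartment gap 2 of 8 stayed within 1.5 times, and for I14E against I1E macrophage segments 6 of 11. DESeq2 with regions as replicates called 4 members in I14E against I1E tubules, 2 in I7E against I1E tubules, and 42 in I14E against I1E macrophage segments. DESeq2 on the sums called 1 in I1E against I1V tubules, 2 between medulla and cortex, and 0 for the change of the compartment gap, which was also 0 with the group in place of the section. TMM and the group in place of the section each called 2 between medulla and cortex. Cortical regions alone gave 1 in I14E against I1E macrophage segments.

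With a section left out, the counts ranged from 0 to 8 for I1V against CTRL macrophage segments, 0 to 15 for I14E against I1E macrophage segments, 0 to 6 for the gap, 0 to 2 between medulla and cortex, 60 to 109 between medulla and cortex of I1V, and 23 to 97 for the day 1 difference in regions. A group left with 1 section was assumed to vary like the others. With the label prefix as a replicate block, the counts were 19 for I1V against CTRL macrophage segments, 18 higher and 1 lower, 14 for I14E against I1E macrophage segments, and 0 in each of the 3 tubule comparisons. Same-numbered sections deviated together at a correlation above 0.1 in 15 of 21 pairs of groups in tubules (median 0.33, lowest -0.55) and 6 of 21 in macrophage segments (median 0.03, lowest -0.10). A pairing was accepted only if every pair exceeded 0.1, so the prefix was not treated as a pairing, although most tubule pairs did exceed it. Other settings of the selection passed 272 to 470 probes in place of 393 and shared 132 to 149 of the 150. The shallow CTRL and I7E macrophage sums limit what could be detected there.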

Other observations

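The tubule segments with the fewest counts were a cortical segment of I14E section 1, with 77621 counts, and a cortical segment of I1E section 1, with 125254. The members took 0.335% of counts in the first and 0.327% in the second. The other I14E and I1E tubule segments reached up to 0.399% and 0.420%.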
